A study of Arabidopsis thaliana with 3 samples.

Results

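Seedlings of the Arabidopsis thaliana mutant fe-1 were compared with wild type seedlings of the accession L.er on 2 of the 3 arrays of the series. These are the arrays whose titles pair WT with fe-1, and on each, a 2-colour Agilent design, the mutant was labelled with Cy5 and the wild type with Cy3. Both groups were whole seedlings, untreated, taken at day 7 and zeitgeber time 15 h after growth on sucrose-supplemented MS medium in long days, and the labels call the arrays biological replicates. On the remaining array, 35S::FE-GR seedlings (line #5) submerged in 1 µM Dex for 2 h were set against a mock treatment of that line, also at day 7 but at zeitgeber time 14 h. It has no replicate, and its ratios are given here only beside those of fe-1. The labels state neither the lesion in fe-1 nor the accession it was made in. The dye orientation was the same on both fe-1 arrays, so dye and genotype cannot be told apart. With 1 RNA pair per array, n is 2 arrays throughout.

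FE, also called APL, encodes a MYB-related transcription factor known for its part in phloem formation and in the activation of the florigen gene FT in leaf veins. Root hairs, whose genes moved furthest among the gene lists described here, are tubular outgrowths of single epidermal cells of the root. A cascade of basic helix-loop-helix factors starts and drives their growth, reactive oxygen and small GTPases focus it at the tip, and a set of wall proteins is made for the extending tube. The beta-glucosidases, cytochromes P450 and glutathione S-transferases described further on are large enzyme families of secondary metabolism and detoxification.

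The values are log2 ratios of fe-1 over wild type, and log2 signals of each channel after scaling between arrays. An offset of 50 was added to the background-corrected intensities, so ratios of dim genes are understated. A gene was called when its limma p-value, adjusted over the 20680 genes tested, was under 0.05, and a fold change was counted only where both arrays passed it in the same direction. Of the gene spots, 72.1% to 78.1% stood well above background in a channel of any of the 3 arrays. Of the leaf tissue markers, RBCS1A and RCA were bright, at log2 signals of 17.5 to 18.1 and 16.5 to 16.7. LHCB2.1, also a leaf marker, read only 8.38 to 8.51. The phloem marker SUC2 had a ratio of -0.06. The floral identity genes AG and AP3 read 6.34 to 6.46 and 6.43 to 6.53, near the dim end of the scale. Both were above background in 4 of 4 channels, and the anther gene A9 (AT5G07230) in 2. The pollen genes VGD1 and AGL66 were above background in 0 of 4 channels. FE itself read 9.84 and 9.71 in fe-1 against 9.99 and 9.91 in wild type, a log2 ratio of -0.17 ± 0.031 (SD, n = 2; limma adjusted p = 0.0432), and its other probes reached up to 0.06. This call was lost with plain background subtraction (limma adjusted p = 0.146), the scanner's processed signals (0.106), median centring (0.144), separate channels (0.425) and, at a ratio of -0.04, the mean of FE's probes (0.602).

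At 1.5-fold more genes fell than rose. Against wild type, 35 genes were at least 1.5-fold higher (0.169% of those tested) and 187 at least 1.5-fold lower (0.904%). At 2-fold the numbers were 11 (0.0532%) and 55 (0.266%). All 222 genes past 1.5-fold were called, with the largest limma adjusted p at 0.00264. Without the fold requirement limma called 1841 genes higher (8.90%) and 2348 lower (11.4%), but 3886 of these 4189 calls were under 1.5-fold. These calls rest on the background model: with plain background subtraction 22 genes were called higher and 116 lower, and keeping 32 spots with a non-uniform background gave 7 and 42. The median difference between replicates was small, 0.0518 as an SD on the log2 scale. Every p-value here rests on spread between only 2 arrays. In the reported fit a gene's own spread has 1 degree of freedom, and the spread pooled over all genes has 6.54. Over all genes the ratios on both arrays had a Pearson r of 0.794 and the same sign in 73.9% of genes. Against the Dex array the r was 0.024. These correlations run across genes, which are not independent replicates, and the ratios on an array share its dyes and scaling.

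**Figure D1:**
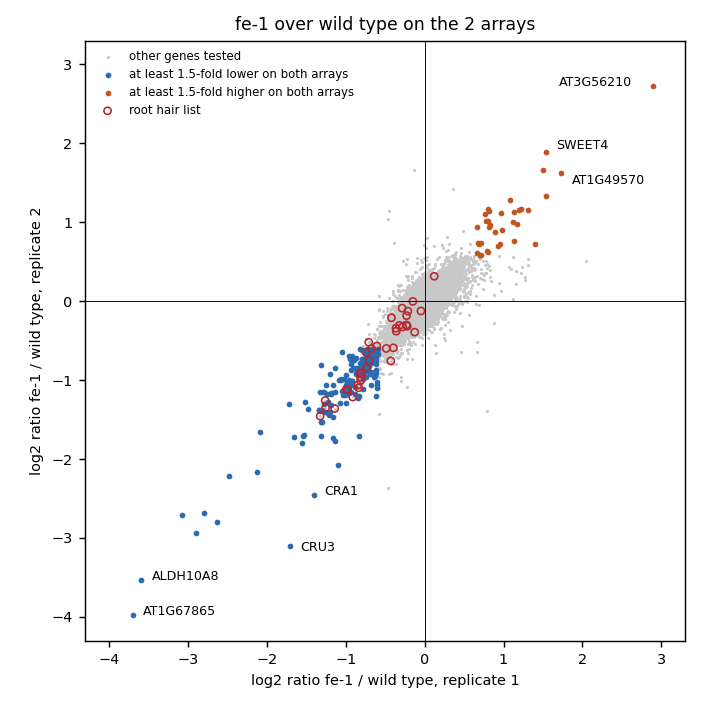
Log2 ratio of fe-1 over wild type on replicate 1 (x axis) and replicate 2 (y axis) for the 20680 genes tested. Blue and orange points are the 187 and 35 genes at least 1.5-fold lower or higher on both arrays, and red rings mark the 36 root hair genes, which lie below 0 on both axes with the exception of SHV3.

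Of 64 gene lists with 2642 members tested, the root hair list moved furthest. The lists were chosen with earlier results of these data known, so this lead is a description and not independent support. Among the 36 tested root hair genes 31 were called lower (86.1%, against 11.4% of all genes). Of the rest, 1 was called higher and 4 were not called. At least 1.5-fold lower on both arrays were 17 (47.2%, against 0.904% of all genes), so that this list alone held 17 of the 187 genes in that class. Its median log2 ratio was -0.60, while that of all genes tested was -0.01. On each array 35 of the 36 ratios were below 0, and the exception on both was SHV3. In RNA of whole seedlings, fewer root hair cells and less RNA per root hair cell cannot be told apart. Seed genes moved with it: of 19 seed storage, oleosin and late embryo genes 10 were called lower (52.6%) and 0 higher. Past 1.5-fold lower were 5 (26.3%), and the median was -0.21. With plain background subtraction the median was -0.87, but 0 were called lower. CRU3, CRA1 and OLEO1 were not called with the scanner's processed signals either. The storage protein gene CRU3 read 8.74 and 6.55 in fe-1 against 10.45 and 9.65 in wild type, without overlap. Its ratio was -2.40 ± 0.98, with a wide spread between arrays, and another of its probes read only -0.71. CRA1, a second cruciferin, had -1.93 ± 0.74, and the oil body genes OLEO1 and OLEO2 had -0.85 and -0.70. Their part in the root hair result was not tested. On the Dex array the root hair list had a median of 0.00, with 18 of 36 members above 0. With plain background subtraction 13 of 35 tested members were called lower around a median of -1.09, and with the non-uniform spots kept 1 of 36 was called around -0.33.

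The transcription factors stand at the top of the root hair pathway, and all 5 tested were called lower, with a median of -0.59. RHD6 and RSL1 act first and commit the cell to forming a hair. RHD6 read 7.58 and 7.57 in fe-1 against 7.86 and 7.89 in wild type, a ratio of -0.30 ± 0.034 (limma adjusted p = 0.0060). RSL1 had a ratio of -0.26. The later-acting RSL2 and RSL4, which promote growth of the hair, and their relative LRL3 lay lower. For RSL2 the log2 signals were 6.80 and 6.87 in fe-1 and 7.54 and 7.52 in wild type, a ratio of -0.69 ± 0.066 (1.62-fold lower; limma adjusted p = 0.000181). For RSL4 they were 6.93 and 7.14 against 7.64 and 7.67, and the ratio was -0.61 ± 0.13 (limma adjusted p = 0.000683). LRL3 had a ratio of -0.59 ± 0.027. In none of these genes did fe-1 and wild type signals overlap, as in 2101 of all 2348 genes called lower. Only RSL2 of the 5 passed 1.5-fold on both arrays.

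All 7 genes for kinases, GTPase regulators and redox signalling were called lower, with a median of -0.49. The NADPH oxidase RHD2, which makes the reactive oxygen at the hair tip, read 8.59 on both arrays in fe-1 against 9.26 and 9.19 in wild type. Its ratio was -0.64 ± 0.052 (1.56-fold lower; limma adjusted p = 0.000251). The receptor-like kinase PERK13 read 7.00 and 6.82 against 7.81 and 7.73, a ratio of -0.86 ± 0.080. A second kinase, RHS16, had 7.18 and 7.13 against 7.99 and 8.09, with a ratio of -0.88 ± 0.10. Signals of fe-1 lay below those of wild type in all 3, without overlap, as in all 187 genes past 1.5-fold downward. The exchange factor ROPGEF4, an activator of small GTPases, and the kinases RSH3, IRE and MRH1 were called lower but did not pass 1.5-fold on both arrays. MRH1 had the smallest drop at -0.31, and its probes ranged from -0.45 to -0.04.

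The wall proteins and wall enzymes fell most, with a median of -1.01 over 12 genes, of which 10 were called lower and 9 passed 1.5-fold. RHS13, a member of the root-hair-specific set, read 10.71 and 10.56 in fe-1 against 12.04 and 12.01 in wild type. Its ratio was -1.39 ± 0.093 (2.62-fold lower; limma adjusted p = 1.07e-05), the lowest in the list. SHV2, the lipid-anchored protein COBL9, read 8.41 and 8.15 against 9.66 and 9.51 (-1.30 ± 0.069). These genes were low in both mutant samples and high in both wild type samples. The proline-rich protein gene PRP1 had nearly the same ratio on both arrays, -1.26, with signals of 7.33 and 7.17 in fe-1 and 8.59 and 8.43 in wild type. Its relative PRP3 had a ratio of -0.95, but a second probe of PRP3 read -0.23. RHS12, a pectin methylesterase, read 7.99 and 7.68 against 8.90 in both wild type samples (-1.06 ± 0.22). The peroxidase RHS19 (-1.25), the expansins EXPA7 (-1.05) and EXPA18 (-0.86), and the glycosyltransferase RHS8 (-0.97) were also past 1.5-fold. The peroxidase RHS18 was called at -0.59, the extensin-like LRX1 was not called, and SHV3, a second lipid-anchored protein, was called higher at 0.22 ± 0.14 (limma adjusted p = 0.0389).

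In the rest of the list, 9 of 12 genes were called lower and 3 were not, with a median of -0.29. Past 1.5-fold were RSH2 (AT1G12950) at -1.06, MRH6 at -0.91, the methyl esterase MES15 at -0.79 and the plasma membrane proton pump HA7 at -0.73. HA7 read 7.75 and 7.78 in fe-1 against 8.46 and 8.53 in wild type. The kinesin MRH2, the phosphoinositide phosphatase RHD4 and GRF11 were not called. In all 31 root hair genes called lower, both fe-1 signals lay below both wild type signals. The same held in 2101 of all 2348 genes called lower.

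**Figure D2:**
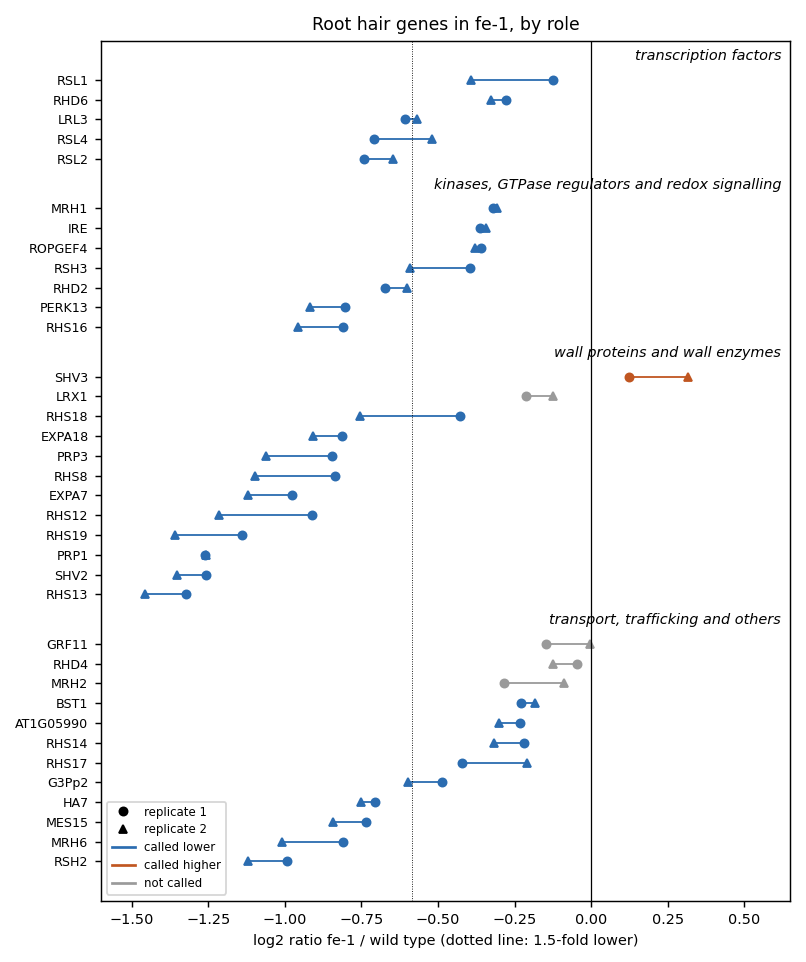
Log2 ratio of fe-1 over wild type (x axis) for the 36 root hair genes tested, grouped by role, with replicate 1 as a circle and replicate 2 as a triangle. Wall genes reach the lowest ratios, down to -1.39 in the mean for RHS13, and the dotted line marks 1.5-fold lower.

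Genes that set the pattern of hair and non-hair cells upstream of RHD6 were not called. These were chosen after the values of the root hair list were seen. The 10 tested had ratios from -0.16 to 0.01. The hair-repressing factors WER and GL2 had ratios of -0.01 and -0.12, and the hair-promoting CPC had -0.08. WER read 8.03 and 8.31 in fe-1 and 7.97 and 8.39 in wild type, and CPC 7.71 and 7.80 against 7.78 and 7.88, so the groups overlapped in both.

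A further 10 genes known from root hairs but not in the list, also chosen after seeing their values, were all called lower, and 9 passed 1.5-fold. Having been picked that way, they add no support to the list, which was itself chosen with earlier results of these data known. AGP3, an arabinogalactan protein gene, read 9.78 and 9.59 in fe-1 and 11.31 and 11.28 in wild type. Its ratio was -1.61 ± 0.12 (3.06-fold lower; limma adjusted p = 8.99e-06). XTH14, which encodes a xyloglucan-modifying enzyme, read 9.96 and 9.84 against 11.19 and 11.25 (-1.32 ± 0.13). The endoglucanase GH9C1 read 8.35 and 8.39 against 9.54 and 9.56 (-1.18 ± 0.017). Neither group overlapped the other in these genes, as in all 187 genes past 1.5-fold downward. The actin-depolymerising factors ADF11 and ADF8 had ratios of -1.06 and -0.97, and COW1, a phosphatidylinositol transfer protein, had -0.81.

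Across the lists of wall families members moved both ways. Over all genes 8.90% were called higher and 11.4% lower. Without the root hair list's members, 26 expansin genes were left, of which 10 were called higher and 3 lower, with a median of 0.07. Over all 28 expansins the sign of the median was not stable, -0.02 on replicate 1 alone and 0.10 on replicate 2 alone. Of 30 xyloglucan hydrolase genes (XTH), 11 were called higher (36.7%) and 8 lower (26.7%), with a median of 0.12. Both fe-1 signals lay above both wild type signals in only 3 of these 11, and in 6 of the 10 expansins called higher. Over all genes this held in 1455 of 1841 called higher. Arabinogalactan and fasciclin-like proteins split 12 higher to 10 lower of 45, and extensins and proline-rich proteins 3 to 5 of 21. The peroxidase list, which was found by gene name and need not cover the family, split 2 to 4 of 9. Among the genes listed, root hair list members held the lowest ratio of expansins (EXPA7), extensins and proline-rich proteins (PRP1) and peroxidases (RHS19). LRX1 and RHS18, though, lay above some members that are not in the root hair list. XTH12 (-1.05), XTH26 (-0.88) and XTH13 (-0.47) were lower beside XTH14.

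The wall genes that rose include ones whose level differed between the replicates more than between genotypes. TCH4, a touch-induced XTH, read 11.62 and 13.73 in fe-1 against 10.30 and 13.19 in wild type, a ratio of 0.93 ± 0.55 (limma adjusted p = 0.0060). XTH33 read 8.02 and 9.49 against 7.09 and 8.79 (0.81 ± 0.16). EXLA1, an expansin-like gene, read 12.40 and 13.91 against 11.56 and 13.66 (0.55 ± 0.42). In each the mutant was higher within an array, while wild type of replicate 2 exceeded fe-1 of replicate 1. AGP21, by contrast, had a ratio of 0.65 ± 0.081 with no overlap of the groups. The extensin LRX3 had a ratio of 0.44, and the peroxidase PRX52 had 0.51.

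**Figure D3:**
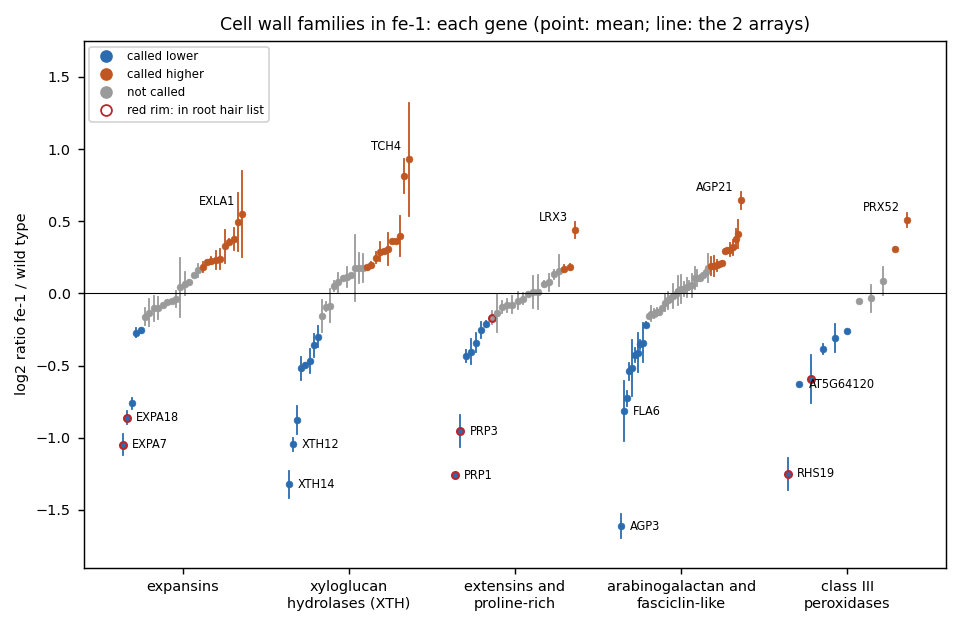
Log2 ratio of fe-1 over wild type (y axis) for each tested gene of 5 cell wall family lists (x axis), as the mean with a line joining both arrays. Red rims mark root hair list members, most of which sit at or near the bottom of their family lists, and grey points were not called.

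Other root tissues moved less. Of 19 genes of the Casparian strip and suberin, the barriers of the endodermis, 11 were called lower (57.9%, against 11.4% of all genes) and 0 higher, but 0 passed 1.5-fold and the median was -0.20. CASP1, a scaffold protein of the strip, read 11.49 and 11.28 in fe-1 against 11.78 and 11.64 in wild type, so the groups did not overlap, and its ratio was -0.33 ± 0.045 (limma adjusted p = 0.00471). The fatty acid reductase FAR5 (-0.32), ESB1 (-0.27) and MYB36 (-0.27), the last a regulator of the strip, were called too, though other probes of ESB1 and MYB36 reached -0.01 and -0.08. The phosphate transporter PHT1;1, which is strong in root epidermis, was not called, at -0.06 ± 0.18 (limma adjusted p = 0.569). The iron-regulated transporter IRT2 had -0.85, and the aquaporin TIP4;1 had -0.60. Another aquaporin, TIP2;3, rose to a ratio of 0.64, although its probes ranged from 0.20.

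Of 42 phenylpropanoid and lignin genes 15 were called lower (35.7%, against 11.4% of all genes) and 2 higher (4.76%, against 8.90%). Past 1.5-fold were 0, and the median was -0.13. The entry enzyme PAL1 had a ratio of -0.34 and the laccase LAC7 -0.57, while PAL3 had 0.32. The same list had a median of -0.50 on the Dex array. Xylem and secondary wall genes stayed nearer the share of all genes, with 6 of 37 lower (16.2%) and 1 higher (2.70%).

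Enzymes of secondary metabolism were called lower more often than all genes. Of 186 cytochromes P450, 40 were called lower (21.5%, against 11.4% of all genes) and 7 higher (3.76%, against 8.90%), around a median of -0.07. Of these, 6 were at least 1.5-fold lower (3.23%, against 0.904%) and 0 higher. A pair of the 6 belongs to the thalianol gene cluster on chromosome 5, which makes a root triterpene. This cluster was picked out after its values were seen. CYP705A5 read 10.47 and 10.18 in fe-1 against 11.66 and 11.49 in wild type (-1.25 ± 0.085), although another of its probes read -0.73. The thalianol synthase THAS1 had a ratio of -1.02 ± 0.094, and CYP708A2 had -0.63 ± 0.034. All 3 were low in both mutant samples, with no overlap, as were all 187 genes past 1.5-fold downward. On the Dex array their ratios were -0.92, -1.28 and -0.34. The other P450 genes past 1.5-fold were CYP712A1 (-1.45), CYP93D1 (-0.91), CYP82F1 (-0.84) and CYP71A27 (-0.70). Another probe of CYP712A1 read -0.76.

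Beta-glucosidases of the BGLU family, which release active compounds from stored glucosides, went both ways. Of 36 tested, 5 were called higher (13.9%, against 8.90% of all genes) and 9 lower (25.0%, against 11.4%). Past 1.5-fold were 3 higher (8.33%, against 0.169%) and 1 lower (2.78%, against 0.904%). BGLU25 read 12.05 and 12.08 in fe-1 against 10.85 and 10.93 in wild type, a ratio of 1.18 ± 0.030 (2.26-fold higher; limma adjusted p = 1.28e-05). BGLU18, an enzyme that frees abscisic acid from its glucose ester, read 13.06 and 13.43 against 12.24 and 12.29 (0.98 ± 0.23). Both were high in both mutant samples, as was BGLU33 (0.90 ± 0.17). BGLU19 read 8.07 and 7.52 against 9.33 and 8.92, a ratio of -1.33 ± 0.095.

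The glutathione S-transferases were similarly mixed, with 7 of 47 higher (14.9%, against 8.90% of all genes) and 11 lower (23.4%, against 11.4%). GSTU22 read 11.86 and 11.88 in fe-1 against 10.69 and 10.90 in wild type (1.08 ± 0.13), and GSTU12 had a ratio of 0.70. GSTU14 read 7.51 and 7.50 against 8.68 and 8.96 (-1.32 ± 0.21), and GSTU28 had -0.74. None of these 4, all past 1.5-fold, overlapped between the genotypes. Of all genes past 1.5-fold, the genotypes were separate in 187 of 187 lower and 28 of 35 higher. UDP-glucosyltransferases, enzymes that attach sugars to small molecules, had 16 of 59 lower (27.1%, against 11.4% of all genes). Called higher were 5 (8.47%, against 8.90%), and 0 passed 1.5-fold.

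Genes of touch and of jasmonate, a wound hormone, were among those called higher more often than all genes. Of 47 touch and wounding genes 18 were called higher (38.3%, against 8.90% of all genes) and 5 lower, and of 36 jasmonate genes 13 higher (36.1%) and 2 lower. Few were large: 1 touch gene and 2 jasmonate genes passed 1.5-fold upward. Their levels also shifted between the replicates. Wild type of replicate 2 exceeded wild type of replicate 1 by at least 0.5 on the log2 scale in 10 of the 47 touch genes, and in 371 of all 20680 genes. Among the 18 touch genes called higher, both fe-1 signals lay above both wild type signals in 10, against 1455 of all 1841 called higher.

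JAZ7, a repressor of jasmonate signalling, shows this pattern: it read 7.97 and 9.34 in fe-1 against 7.26 and 8.60 in wild type, with a ratio of 0.73 ± 0.021. The deadenylase gene CAF1a read 8.56 and 10.15 against 7.76 and 9.53 (0.71 ± 0.13). Each was higher in fe-1 within an array, and the groups overlapped across arrays. The lipoxygenase LOX4 read 8.52 and 8.74 against 7.74 and 8.10 (0.71 ± 0.11), without overlap. The jasmonate synthesis genes AOS and LOX2 had ratios of 0.39 and 0.37, whereas the storage proteins VSP1 and VSP2, usual jasmonate outputs, were called lower at -0.34 and -0.30. NATA1, an acetyltransferase induced by jasmonate, had 0.90 ± 0.75.

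**Figure D4:**
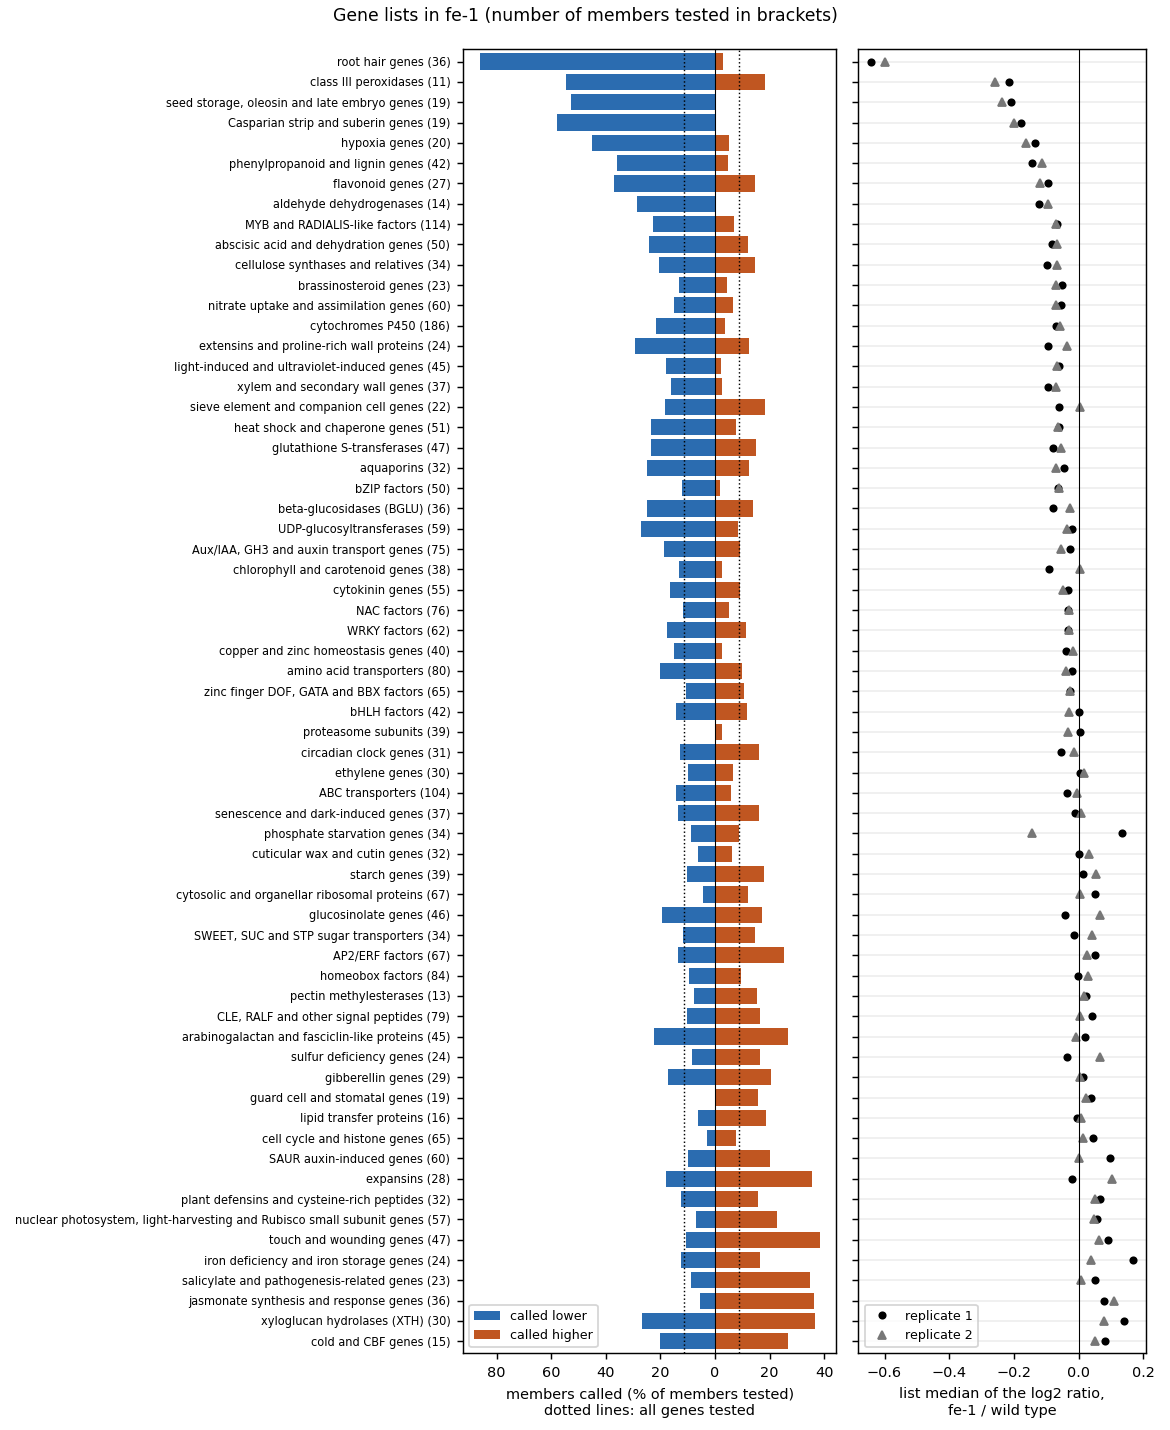
Left, share of each list's tested members called lower (blue) or higher (orange), in percent, with the shares over all genes as dotted lines (11.4% and 8.90%). Right, the list median of the log2 ratio on replicate 1 (circle) and replicate 2 (triangle), which is lowest for root hair genes.

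Single genes of transport and carbon use changed as well. SWEET4, a sugar transporter, read 7.93 and 8.24 in fe-1 against 6.40 and 6.36 in wild type, a ratio of 1.71 ± 0.25 (3.27-fold higher; limma adjusted p = 2.2e-05), and it alone passed 1.5-fold among 34 SWEET, SUC and STP sugar transporters. Among 80 amino acid transporters 16 were called lower and 8 higher, where 11.4% and 8.90% of all genes were. The amino acid permeases AAP2 and AAP4 passed 1.5-fold: AAP2 read 12.24 and 12.50 against 13.29 and 13.15 (-0.84 ± 0.28), and AAP4 had a ratio of -0.71 ± 0.046. None of these 3 genes overlapped between the groups, which were also separate in 187 of 187 lower and 28 of 35 higher genes past 1.5-fold. GDH3, a glutamate dehydrogenase, had a ratio of 0.88. Of 39 starch genes 7 were called higher (17.9%) and 4 lower (10.3%), and 2 passed 1.5-fold downward. These were the alpha-amylase AMY2, at 8.97 and 8.92 against 9.99 and 9.90 (-1.00 ± 0.022), and the water dikinase PWD (AT4G24450) at -1.30.

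Among 114 MYB and RADIALIS-like factors, 26 were called lower (22.8%, against 11.4% of all genes) and 8 higher (7.02%, against 8.90%). The small MYB-like gene RL4 read 8.77 and 8.60 in fe-1 against 10.32 and 10.39 in wild type, a ratio of -1.67 ± 0.17 (3.19-fold lower; limma adjusted p = 1.1e-05), and the groups lay far apart. Its relative RL5 stayed not well above background in both mutant samples and was at least 1.70-fold lower. AP2/ERF factors had 17 of 67 called higher (25.4%) and 9 lower (13.4%), with RAP2.11 past 1.5-fold at -0.84.

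Several lists stayed near or under the share of all genes called, 8.90% higher and 11.4% lower. Ribosomal proteins had 8 higher (11.9%) and 3 lower (4.48%) of 67, cell cycle and histone genes 5 and 2 of 65, and proteasome subunits 1 and 0 of 39. Phosphate starvation genes had 3 and 3 of 34, with list medians of 0.13 and -0.14 on the arrays, and one past 1.5-fold, the ribonuclease RNS1 at -0.95. The same list had a median of 1.28 on the Dex array.

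Many of the strongest differences were in genes that carry no symbol in the RefSeq gene table: 92 of the 187 lower and 19 of the 35 higher genes. AT1G67865 read 7.49 and 7.36 in fe-1 against 11.19 and 11.33 in wild type, a ratio of -3.84 ± 0.19, and another of its probes read -1.48. ALDH10A8, a betaine aldehyde dehydrogenase, read 9.15 and 9.09 against 12.74 and 12.62 (-3.56 ± 0.045). Of the 14 aldehyde dehydrogenases 4 were called lower (28.6%, against 11.4% of all genes), and ALDH10A8 alone passed 1.5-fold. At the other end AT3G56210 read 10.59 and 10.39 against 7.70 and 7.67 (2.81 ± 0.12), while another of its probes read 0.03. Signals of fe-1 and wild type were separate in all 187 genes past 1.5-fold downward and in 28 of the 35 upward. Over all genes called, they were separate in 2101 of 2348 lower and 1455 of 1841 higher.

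**Figure D5:**
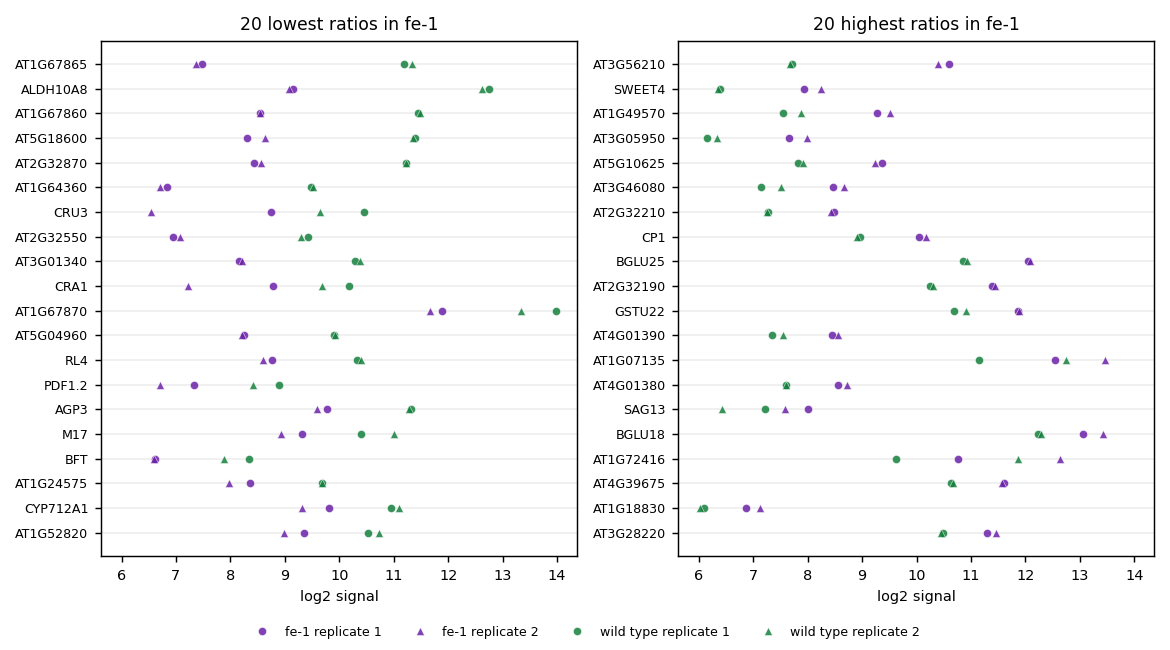
Log2 signal (x axis) in the 4 samples for the genes with the 20 lowest and 20 highest log2 ratios among those at least 1.5-fold changed on both arrays. Purple is fe-1 and green wild type, circles are replicate 1 and triangles replicate 2; CP1 is AT4G36880.

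Genes past 1.5-fold were spread over the genome. Their share was 1.21% of genes tested on chromosome 1, 1.14% on chromosome 2, 0.906% on chromosome 3, 1.21% on chromosome 4 and 0.933% on chromosome 5, and it was 1.07% over all. In RefSeq order of tested genes, 19 of the 222 stood next to another such gene, 18 of them beside one that moved in the same direction. AT1G67860, AT1G67865 and AT1G67870, with ratios of -2.91, -3.84 and -1.87, are one such run, and the thalianol genes are another. AT2G32870 (-2.74) and AT2G32880 (-0.70) lie beside BGLU33, which moved the other way. The stretch of 100 tested genes that holds FE on chromosome 1 had 0 genes past 1.5-fold in either direction.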

How the data were processed

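The authors deposited scanner files with median spot intensity and median local background intensity for each dye, not normalized. Per the file headers, the software was version 10.7.3.1 of Agilent Feature Extraction (10.7 per the submitters' processing notes). The files also hold processed signals and a log10 ratio per spot, deposited by the authors, which is 0 in 13.5% to 15.0% of gene spots. The authors' deposited series table holds log2 ratios that differ from the scanner's by at most 0.005, with a median of 0 on every array.

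Here background was corrected with normexp (offset 50), then loess within arrays and Aquantile scaling of signals, in limma 3.58.1 under R 4.3.3. Control and outlier spots were left out, and so were 32 spots with non-uniform background on replicate 1, which move its fitted normexp background mean in Cy5 from -10.8 to -1128 (replicate 2: -11.4). Of 43603 probes, 34285 matched 25383 loci through RefSeq accessions (TAIR10.1), used for names and order only. Probes well above background in at least 2 of 4 channels were kept, and the brightest of them stood for its gene (6165 genes had several). limma tested the mean ratio against 0 over 2 arrays (residual degrees of freedom 1, prior 6.54), p-values being adjusted by Benjamini-Hochberg, and the fit was tested on simulated data. Each array pairs its samples by design, so the ratio is the paired value. "At least" folds set the bright group against the higher of the dim probe's signal and the lowest signal well above background.

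The members and lists were chosen with earlier results of these data known, and 14 members that only shared a name with their list were removed afterwards. Named genes are FE, tissue markers, the 20 highest and 20 lowest ratios among genes past 1.5-fold with all probes on one side of 0, and per list up to 3 members each way past 1.5-fold (otherwise the called member with the largest change). Root hair members are given by role. Other genes named from the lists, the neighbouring genes, FE's stretch, the patterning genes, the root hair genes outside the list and the thalianol cluster were chosen after their values were seen. Sequences and coordinates were not used here.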

Additional observations from a re-analysis of the deposited data

Results flagged for a closer look

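Of 4784 probes above background that matched no locus in the gene table, 7 were at least 2-fold lower in fe-1 on both arrays and 0 were at least 2-fold higher. They lie outside the genes tested. Their mean log2 ratios ranged from -1.92 to -1.11, and the brightest read 11.67 and 10.78 in fe-1 against 12.68 and 11.99 in wild type. The replicates differed most in a probe with ratios of -1.29 and -2.44. Their identity and the cause were not tested.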

How the results depend on the processing

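Counts depended strongly on background handling, whose cause was not tested. Called higher and lower were 22 and 116 with plain background subtraction, 7 and 42 with the non-uniform background spots kept, 139 and 411 with the scanner's processed signals, and 0 and 0 with the series table. Past 1.5-fold were 124 and 470, 7 and 39, 157 and 507, and 157 and 507 genes in that order, and past 2-fold 33 and 192, 0 and 8, 48 and 229, and 48 and 229. Median centring in place of loess called 1494 lower and put 59 genes past 1.5-fold higher. A single array, which has no test, put 60 to 108 genes past 1.5-fold higher and 210 to 289 lower, and 21 to 27 and 64 to 91 past 2-fold. With the channels fitted apart, without the replicate block that pairs the samples of an array, 17 genes were called higher and 100 lower, and 14 root hair genes lower. Root hair genes called lower numbered 13 with plain subtraction, 1 with the non-uniform spots kept, and 0 with the series table. Past 1.5-fold lower they numbered 1 with those spots kept and 26 with processed signals or the series table, and 19 to 20 on a single array. The list's median stayed below 0 in every setting, from -1.20 to -0.33, and 35 of 36 members stayed below 0 except where fewer were tested. Of 163 named genes, 115 lost their call with plain subtraction, 142 with the non-uniform spots kept, 77 with processed signals, 155 with the series table and 111 without the block. Among the 155 named genes called as reported 0 changed sign in the settings run, single arrays included, and 5 of the 8 not called did (RCA, PHT1;1, SUC2, AT5G07230 and AG). Medians near 0 are not stable: 52 to 64 of 64 lists kept their sign, with glutathione S-transferases moving from -0.05 to 0.02 under median centring. Of the genes past 1.5-fold in the reported setting, plain subtraction called 13 of the 35 higher and 88 of the 187 lower. The precision is limited by 2 arrays, and dim genes by the offset.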
